A study of Mus musculus with 6 samples.

Results

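The common gamma chain cytokine receptors and the kinases bound to them were followed in mouse group 2 innate lymphoid cells (ILC2s). The 8 genes were matched by symbol: the receptor chains Il2ra, Il2rb, Il2rg, Il4ra, Il9r and Il21r and the kinases Jak1 and Jak3. All 8 were found among the 27179 gene IDs of the count table, and all 8 passed the low-count filter that left 12967 genes for testing. ILC2s, lymphocytes that lack an antigen receptor and release type 2 cytokines, had been sorted by Chat, the gene of the enzyme that makes acetylcholine. Bulk RNA libraries came from 3 samples of a Chat negative gate and 3 of a Chat positive gate, numbered 1 to 3 in each. The sources used here do not give strain, genotype, age, tissue, any treatment of the mice or the way Chat was detected. They also do not say whether each sample was a different animal, and the p-values reflect nothing beyond sample-to-sample spread, which may be technical.

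Interleukin-2 (IL-2), IL-4, IL-7, IL-9, IL-15 and IL-21 signal through receptors that share 1 chain, the common gamma chain, encoded by Il2rg. Each cytokine adds its own chain or chains, and the paired cytoplasmic tails bring together JAK1, which sits mainly on the private chain, and JAK3, which sits on the common gamma chain, so that STAT proteins are phosphorylated. In ILC2s several of these cytokines are known as survival and growth signals, and ILC2s themselves can make IL-4 and IL-9.

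The RefSeq promoter table of GRCm38.p6, the assembly behind mm10, held 7 of the 8 genes, all but Il2rb. The 250 bases before the start were searched on both strands for TTCNNNGAA and for the same ends with 1 more N between them, spacings that STAT proteins bind, and for the GATA motif AGATAA. Neither STAT spacing was found in any of the 7 windows, against 7.02% and 5.85% of all 32851 windows of this length. No match says only that these letters are not in this stretch. AGATAA was found in Il9r alone of the 7, against 9.99% of all windows. The NF-kappaB consensus and the ETS motif CCGGAAG were added after the windows had been read. The former was found in Il2ra alone of the 7 and the latter in Il2rg alone. As both motifs were added after that reading, their shares of all windows (7.25% and 6.91%) allow no fair comparison. The NF-kappaB matches in Il2ra overlap one another on the opposite strands, and TTATCT in Il9r is AGATAA on the reverse strand. A match does not show that a factor binds there. Below are the windows of Il2ra, the most abundant chain, Il2rg, the shared chain, and Il9r, all 5′ to 3′ along the gene, with matches in capitals. They lie at chr2:11642542-11642791 (plus strand), chrX:101268256-101268505 (minus) and chr11:32200280-32200529 (minus), and the last of these precedes a start that lies inside the annotated span of Il9r. Gene positions given below are RefSeq spans on GRCm38.
Il2ra: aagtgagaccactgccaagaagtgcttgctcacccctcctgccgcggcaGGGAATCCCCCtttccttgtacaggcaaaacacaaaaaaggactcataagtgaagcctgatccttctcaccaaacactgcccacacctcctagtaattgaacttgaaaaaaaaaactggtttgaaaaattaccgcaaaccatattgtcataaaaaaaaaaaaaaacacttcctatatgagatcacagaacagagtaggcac
Il2rg: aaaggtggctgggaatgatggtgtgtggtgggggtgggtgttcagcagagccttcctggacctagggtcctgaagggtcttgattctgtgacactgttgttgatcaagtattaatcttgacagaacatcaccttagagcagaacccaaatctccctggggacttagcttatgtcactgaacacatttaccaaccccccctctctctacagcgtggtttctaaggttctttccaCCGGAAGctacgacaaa
Il9r: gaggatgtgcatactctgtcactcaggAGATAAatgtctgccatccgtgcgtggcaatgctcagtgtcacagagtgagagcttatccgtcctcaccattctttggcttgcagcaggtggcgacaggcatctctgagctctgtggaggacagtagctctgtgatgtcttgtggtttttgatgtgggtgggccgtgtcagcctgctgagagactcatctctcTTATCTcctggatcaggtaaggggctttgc

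Libraries held 37154269 to 50361306 counts. The ILC2 markers listed were all tested (10 of 10, among them Gata3, Il1rl1, Icos and Il5), with summed levels of 11737 to 15267 counts per 1000000 (CPM) in the Chat negative gate and 13307 to 20666 in the Chat positive gate. The largest part of these sums was Il5, with means of 7012 CPM in the Chat negative and 11186 CPM in the Chat positive gate. Gata3 averaged 2281 and 2128 CPM, and Icos 2307 and 2372 CPM. The T cell list (4 of 8 genes tested) summed to 181 to 197 CPM in the Chat negative gate and 179.6 to 191 CPM in the other, with Lat at 143 to 167 CPM, Cd3g at 14.6 to 39.8 and Cd3e at 1.83 to 4.86. The B cell list (2 of 6 tested) summed to 66.3 to 74.5 and 69.0 to 86.2 CPM, nearly all from Cd79b at 66.2 to 85.4. Of the other markers of these lists and of the NK cell list, Cd8b1 was at 0, and no library held more than 6 counts of Cd5, Cd8a, Cd79a, Eomes, Klrb1c or Ncr1. Others were present: Cd3d had 36 to 87 counts in a library, Klrk1 36 to 185, and Prf1 57.6 to 103 CPM. Cd4, Ebf1 and Tbx21 reached at most 50, 29 and 15 counts. Chat, which checks the labels, averaged 20.2 ± 5.49 CPM in the Chat negative gate and 187 ± 17.9 CPM in the Chat positive gate (SD, n = 3 each, as for all means below). The quasi-likelihood test of edgeR called this gene alone among 12967 (0.00771%), with a Benjamini-Hochberg adjusted p of 0.0174. The libraries of number 2 stood apart from the others in both gates. Within a gate, pairs with a number 2 library differed by a chi-square per degree of freedom of 132 to 187, and the pairs of numbers 1 and 3 by 31.5 and 32.2. The labels do not say what a number stands for.

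Without the replicate number in the fit, no receptor chain or kinase passed the threshold between the gates. At an unadjusted p under 0.05, 1 of the 8 remained in edgeR, Il2rb, where 2.43% of all genes did. DESeq2 and limma-voom without the replicate number called 0 of the 8, and 4 and 1 of all 12967 genes. Once the number was added as a block, edgeR called 0 of the 8 and 0.339% of all genes, and DESeq2 called 2 of the 8, Il2rb and Jak1, and 3.67% of all genes. Over the 8 genes the median log2 change, Chat positive minus Chat negative, was -0.07, with 3 above and 5 below 0, beside a median of 0.00 over all genes tested, of which 6594 were above and 6373 below 0. In bulk samples, fewer cells of a type and less RNA per cell cannot be told apart.

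Il2rg, which encodes the common gamma chain (Entrez 16186, chromosome X, 101264385 to 101268255), had 904, 909 and 875 CPM across Chat negative libraries 1, 2 and 3. Chat positive libraries 1, 2 and 3 held 1034, 861 and 903 CPM. Chat positive 1 was the highest library and Chat positive 2 the lowest, so the Chat positive samples enclosed the Chat negative ones. The means were 896 ± 18.5 and 933 ± 90.3 CPM, a log2 change of 0.06 (95% interval -0.19 to 0.31). An annotated gene on the same strand, Gm20489, shares 728 exonic bases with Il2rg, and the sources used here do not say how reads there were counted.

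Il2ra, the alpha chain that gives the IL-2 receptor its high affinity and does not itself signal (Entrez 16184, chromosome 2, 11642792 to 11693194), was the most abundant of the 8. Chat negative libraries 1, 2 and 3 held 3619, 5777 and 3799 CPM. Chat positive libraries 1, 2 and 3 held 4077, 5755 and 4135 CPM. Both number 2 libraries were above the other 4, and the gates overlapped. The means were 4398 ± 1197 and 4656 ± 953 CPM, a log2 change of 0.08 (95% interval -0.46 to 0.62). Without the number 2 libraries the log2 change was 0.14 (SE 0.07, edgeR adjusted p = 0.623). The libraries of number 2 were above all others for 26.3% of all genes tested and below all others for 23.4%, so that Il2ra shared its pattern with a large part of the transcriptome. Regulatory T cells also carry this chain at a high level. Their factor Foxp3 lay at 1.20 to 3.52 CPM. The list that holds it, 3 of 3 genes tested, summed to 86.9 to 96.7 CPM in the Chat negative gate and to 81.8 to 90.7 CPM in the other. Most of each sum came from Ikzf4, at 59.9 to 80.4 CPM. The part of regulatory T cells in the Il2ra level was not tested.

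Il2rb, the beta chain through which both IL-2 and IL-15 signal (Entrez 16185, chromosome 15, 78479256 to 78511621), was the only one of the 8 with no overlap between the gates. Chat negative libraries 1, 2 and 3 held 1018, 971 and 930.4 CPM. Chat positive libraries 1, 2 and 3 held 864, 841 and 772 CPM. Every Chat positive library was below every Chat negative one, as for 3.61% of all genes tested (4.53% did not overlap the other way). Il2rb was lower in Chat positive cells for 3 of 3 numbers, as for 17.3% of genes, while 22.3% were higher for 3 of 3. The means were 973 ± 43.9 and 825 ± 47.8 CPM, a log2 change of -0.24 (SE 0.10, 95% interval -0.47 to -0.01), or 0.848-fold. Its unadjusted p was 0.0451 and its edgeR adjusted p 1.00, so the difference was not called. Blocking on the replicate number, edgeR gave a log2 change of -0.24 and an adjusted p of 0.0916, while DESeq2 with the block called Il2rb lower (-0.25, adjusted p = 9.18e-04). Without the number 2 libraries the log2 change was -0.26 (SE 0.09, edgeR adjusted p = 0.544). NK cells and ILC1s carry this chain as well. Their marker list (2 of 7 genes tested) summed to 74.1 to 107 CPM in the Chat negative gate and to 60.0 to 89.3 CPM in the other, mostly from Prf1, while Klra8 was at 0 in all libraries. The part of this list in the Il2rb difference was not tested.

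Il4ra, the chain shared by the receptors for IL-4 and IL-13 (Entrez 16190, chromosome 7, 125552271 to 125579474), had 749.9, 673 and 767 CPM across Chat negative libraries 1, 2 and 3. Chat positive libraries 1, 2 and 3 held 764, 716 and 757 CPM. Its number 2 libraries were the lowest of their gates, opposite to Il2ra. The means were 730.0 ± 50.2 and 746 ± 26.2 CPM, a log2 change of 0.03 (95% interval -0.20 to 0.26). An antisense gene, Gm44876, overlaps 571 of its exonic bases, and without a stated strand setting the reads of the pair cannot be told apart.

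The chains for IL-9 and IL-21 were the least abundant. Il9r (Entrez 16199, chromosome 11, 32187544 to 32205283) had 89.9, 95.1 and 104 CPM across Chat negative libraries 1, 2 and 3, against 95.2, 97.3 and 87.1 CPM across Chat positive libraries 1, 2 and 3. The highest and the lowest library carried number 3, the highest in the Chat negative gate. Its log2 change was -0.05 (95% interval -0.29 to 0.20). Il21r (Entrez 60504, chromosome 7, 125603252 to 125634397), a near neighbour of Il4ra, had 90.8, 78.4 and 80.8 CPM across Chat negative libraries 1, 2 and 3, against 84.9, 78.5 and 72.5 CPM across Chat positive libraries 1, 2 and 3. The gates overlapped, with number 1 highest in each, and the log2 change was -0.08 (95% interval -0.35 to 0.18).

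Jak1, the kinase that binds the private chains and many other cytokine receptors (Entrez 16451, chromosome 4, 101151974 to 101265282), had 1232, 1323 and 1186 CPM across Chat negative libraries 1, 2 and 3. Chat positive libraries 1, 2 and 3 held 1076, 1222 and 1043 CPM. It was lower in Chat positive cells for 3 of 3 numbers, as for 17.3% of genes tested, although Chat positive 2 lay above Chat negative 3. The means were 1247 ± 70.0 and 1113 ± 95.2 CPM, a log2 change of -0.16 (SE 0.11, 95% interval -0.42 to 0.09, edgeR adjusted p = 1.00). With the replicate block, the log2 change was -0.17 in edgeR (adjusted p = 0.146) and -0.17 in DESeq2, which called it lower (adjusted p = 0.0397). Raver2, on the other strand, shares 4 exonic bases with Jak1.

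Jak3, the kinase that binds the common gamma chain and whose loss causes immune deficiency (Entrez 16453, chromosome 8, 71676383 to 71690577), had 858, 602 and 749 CPM across Chat negative libraries 1, 2 and 3. Chat positive libraries 1, 2 and 3 held 788, 606 and 681 CPM. Number 2 was lowest in each gate, and the gates overlapped. The means were 736 ± 129 and 691 ± 91.5 CPM, a log2 change of -0.09 (95% interval -0.48 to 0.29), or -0.14 (SE 0.11) without the number 2 libraries. Insl3, on the same strand, shares 404 exonic bases with Jak3 but stood at only 1.03 ± 0.378 and 1.54 ± 0.845 CPM.

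**Figure D1:**
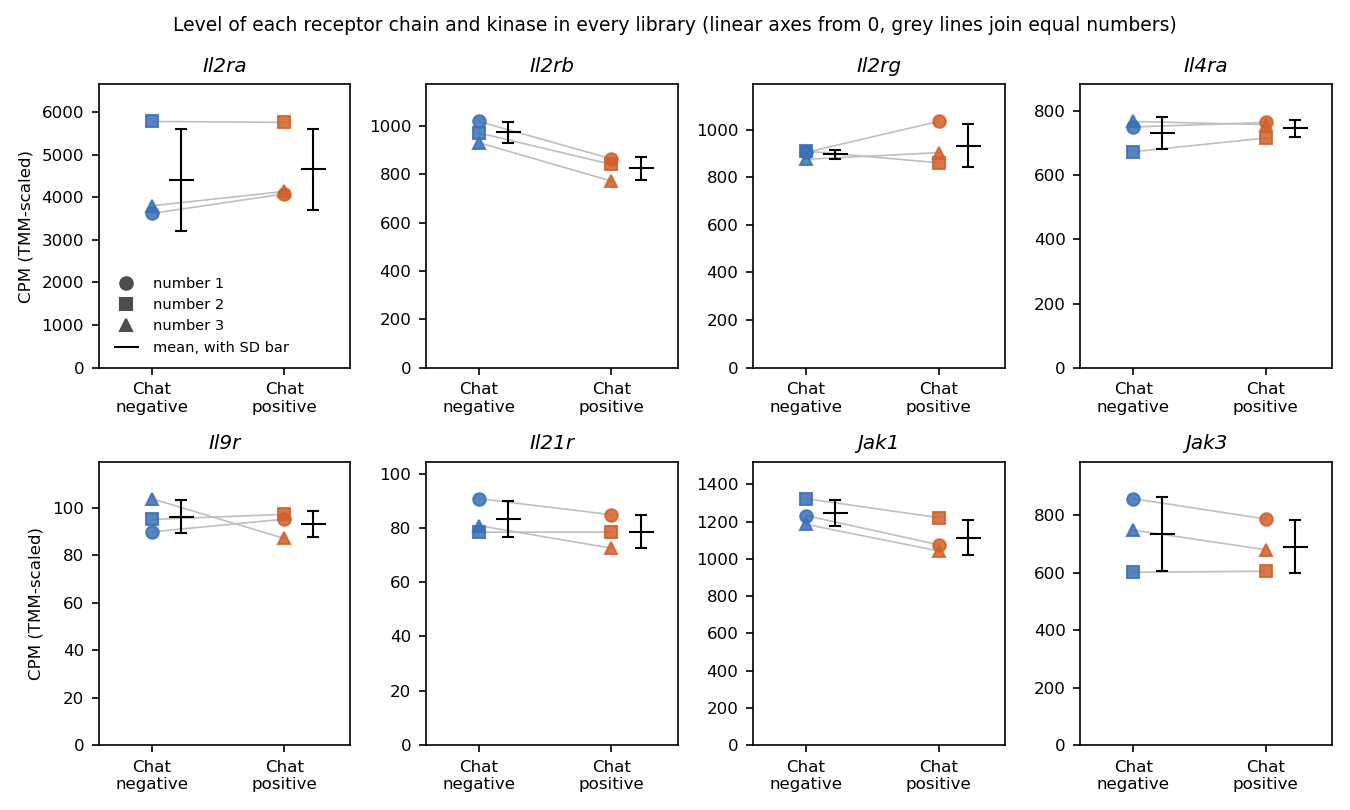
Each panel plots the CPM of 1 gene (linear axis from 0) in the 3 Chat negative and 3 Chat positive libraries, with the number of a library as the symbol, grey lines between equal numbers, and mean and SD beside the points. Il2rb is the only panel without overlap between the gates, while Il2ra separates number 2 (5777 and 5755 CPM) from the other 4 libraries.

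Levels were compared between genes per kb of the longest annotated transcript. On this scale Il2ra averaged 1026 CPM per kb over the 6 libraries and Il2rg 548, followed by Jak1 at 241, Il2rb at 214, Jak3 at 176 and Il4ra at 140.4. Il21r, at 32.4, and Il9r, at 21.1 CPM per kb, came last. This order was the same in each of the 6 libraries. Across libraries the ranges of Jak1 (213 to 269.7) and Il2rb (184 to 243) overlapped, as did those of Il2rb and Jak3 (149 to 212), although within each library Jak1 was above Il2rb and Il2rb above Jak3. Il2ra and Il2rg were above 99.8% and 99.5% of the 12088 tested genes with a known length, and Il9r above 72.5%. With coding length in place of transcript length, Il2rb came before Jak1, Il4ra before Jak3 and Il9r before Il21r.

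**Figure D2:**
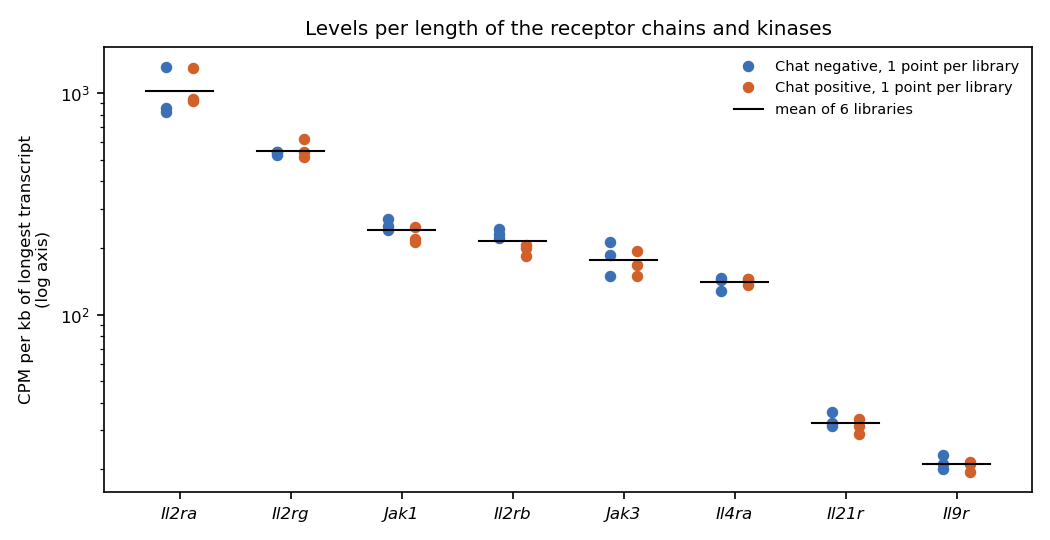
Points give CPM per kb of the longest transcript on a log axis, 1 point per library in blue (Chat negative) or orange (Chat positive), and black lines the mean of 6 libraries. Genes run from Il2ra (1026 CPM per kb) to Il9r (21.1), with the gates side by side at each gene.

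Ratios within a library, which do not depend on library scaling, were compared for 7 pairs of chains or kinases by two-sided exact permutation tests of 3 against 3, whose smallest possible p is 0.1. The ratio of Il2rb to Il2rg CPM was 1.13, 1.07 and 1.06 in Chat negative libraries 1, 2 and 3, against 0.835, 0.977 and 0.855 in Chat positive libraries 1, 2 and 3. All Chat negative values were above 1 and all Chat positive values below it. These CPM are not divided by transcript length, so the value 1 does not mark equal numbers of transcripts. Per kb, Il2rb (mean 214) was below Il2rg (548) in each library of both gates. The log2 ratio differed by -0.29 (0.12 ± 0.05 against -0.17 ± 0.12, SD, n = 3 each, exact permutation p = 0.1, adjusted p = 0.7 over the 7 ratios) and was lower for 3 of 3 numbers. Without the number 2 libraries it differed by -0.37. For 3 of 3 numbers the ratio of Il2ra to Il2rb was higher in the Chat positive library, with log2 values of 2.14 ± 0.38 and 2.48 ± 0.27 that overlapped (n = 3, exact permutation p = 0.3, adjusted p = 0.7). Its difference of 0.33 became 0.40, with no overlap at 2 libraries against 2, without the number 2 libraries. It was 0.18 without Chat negative 1, 0.55 without Chat negative 2 and 0.19 without Chat positive 2.

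The other ratios overlapped between the gates over all 6 libraries. The log2 differences were 0.04 for Il2ra, -0.02 for Il4ra, -0.10 for Il9r and -0.14 for Il21r relative to Il2rg (exact permutation p = 0.8, 0.9, 0.5 and 0.2). Without the number 2 libraries the values for Il9r (-0.20) and Il21r (-0.25) were lower in the Chat positive gate with no overlap, at 2 libraries against 2. This subset was taken after number 2 was seen to stand apart, and in it the CPM of Il9r and of Il21r overlapped between the gates. The ratios to Il2rg all share its values, which were highest in Chat positive 1 (1034 CPM). The ratio of Jak1 to Jak3 was 1.44, 2.20 and 1.58 in Chat negative libraries 1, 2 and 3, against 1.37, 2.02 and 1.53 in Chat positive libraries 1, 2 and 3. It was highest for number 2 in each gate, and the log2 difference between the gates was -0.08 (exact permutation p = 0.6, unpaired). Within numbers 1, 2 and 3 the difference was -0.07, -0.12 and -0.05, lower for 3 of 3.

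**Figure D3:**
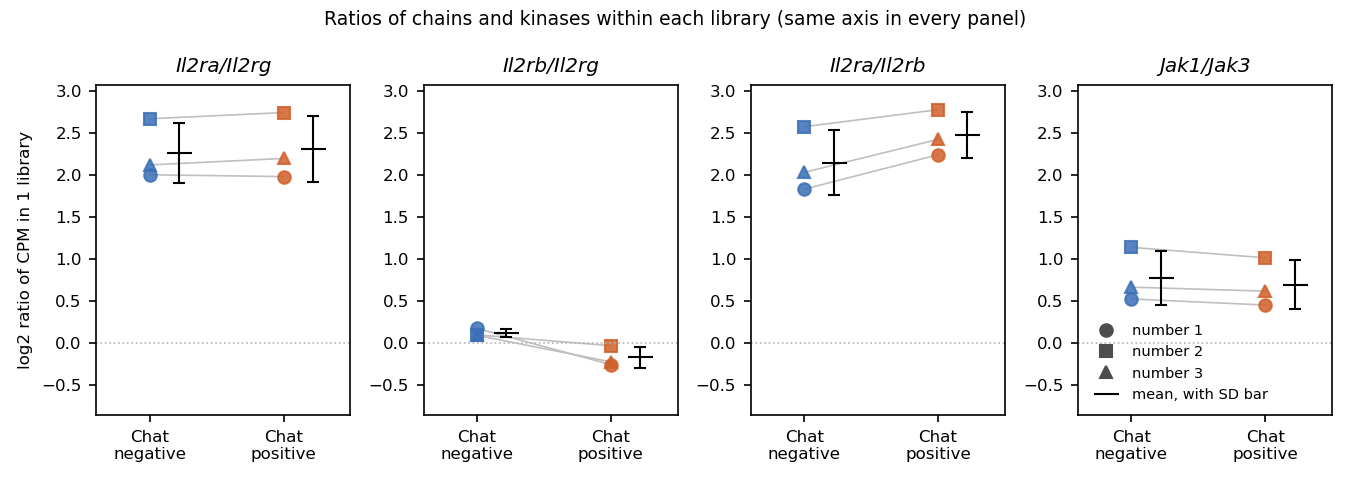
Each panel shows the log2 ratio of 2 genes' CPM within each library, on 1 shared axis, by gate, with the number as the symbol, grey lines between equal numbers and mean and SD beside the points; the dotted line marks equal CPM. The Il2rb to Il2rg ratio lies above the line in the Chat negative and below it in the Chat positive libraries, while Il2ra to Il2rg and Jak1 to Jak3 spread by number. CPM are not divided by transcript length, so the line does not mark equal numbers of transcripts.

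The 8 genes did not vary together across the 6 libraries. Pearson's r of log2 CPM, given as a description over libraries that share gate, number and depth, was -0.92 between Il2ra and Jak3, -0.87 between Il2ra and Il4ra, 0.75 between Il4ra and Jak3 and 0.76 between Il2rb and Jak1. Between Il2rb and Il2rg it was -0.07. Among 8236 genes of at least 10 CPM, the closest to Il2ra were Ran, a GTPase of nuclear transport (r = 0.998), Atad3a, a mitochondrial ATPase (0.998), and Cct6a, a chaperonin subunit (0.997). Ran averaged 222 ± 65.8 CPM in the Chat negative gate and 238 ± 50.7 CPM in the other. The closest to Il2rb were Kctd10 (0.986), H6pd, an enzyme of the endoplasmic reticulum (0.983), and Atf7ip, a chromatin cofactor (0.982), with Kctd10 at 173 ± 6.72 and 149 ± 5.09 CPM. The closest to Il2rg were the transcription factor Rfx1 (0.974), Wdr70 (0.961) and Prr13 (0.953), with Prr13 at 547 ± 12.6 and 550.1 ± 56.3 CPM. All were picked for the highest r over 6 libraries, so their means follow those of their chain by choice. They add no separate result on the gates.

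Around the 8 genes, 62 other genes of the pathway were listed, and 57 were tested. In edgeR none was called, where 0.00771% of all genes were, and none had an unadjusted p under 0.05, where 2.43% did. DESeq2 and limma-voom without the block called none of the 57, and 4 and 1 of all 12967 genes. The median log2 change of the 57 was -0.10, with 17 above and 40 below 0. Of the 57, 3 did not overlap between the gates, where 8.14% of all genes did not. Over all genes tested, 6594 were above and 6373 below 0. DESeq2 with the block called 7 of the 57, where it called 3.67% of all genes. Il9 and Osm were higher, and Il7r, Ccnd2, Ccnd3, Pik3cd and Pim2 lower. For the single genes below, 17.3% of all genes tested were lower and 22.3% higher in the Chat positive gate for 3 of 3 numbers.

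Of the ligands, 3 of 6 were tested. Il9 had 36.3, 32.9 and 66.5 CPM across Chat negative libraries 1, 2 and 3, against 53.6, 67.2 and 83.1 CPM across Chat positive libraries 1, 2 and 3, higher for 3 of 3 numbers but with overlap (log2 change 0.59, SE 0.30, edgeR adjusted p = 1.00). DESeq2 with the block gave 0.63 and an adjusted p of 4.49e-04, while edgeR with the block gave 0.64 and an adjusted p of 0.114. Il4 had a log2 change of 0.29 (SE 0.23). Il2, Il15 and Il21 had at most 5, 3 and 1 counts in a library, and Il7, which was tested, had at most 34.

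Of the other receptor chains, 4 of 5 were tested, with Il13ra2 at 0 counts throughout. Il7r, the IL-7 receptor chain, had 1310, 797 and 1497 CPM across Chat negative libraries 1, 2 and 3, against 1153, 732 and 1164 CPM across Chat positive libraries 1, 2 and 3. It was lower for 3 of 3 numbers, but number 2 was lowest in each gate and the gates overlapped (log2 change -0.24, SE 0.27). DESeq2 with the block called it lower (-0.23, adjusted p = 0.0183), while edgeR with the block did not (-0.22, adjusted p = 0.122). Il15ra, the private chain for IL-15, averaged 5.96 ± 1.33 and 6.72 ± 2.27 CPM. Crlf2, the receptor chain for TSLP that pairs with Il7r, averaged 70.05 ± 14.5 and 66.1 ± 21.8 CPM. Il13ra1, which joins Il4ra to form the type II receptor for IL-4 and IL-13, averaged only 1.75 ± 0.721 and 1.54 ± 0.379 CPM.

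Downstream, the 7 STAT genes had log2 changes of -0.17 to 0.14. The most abundant was Stat3 at 726 ± 23.0 and 699 ± 48.6 CPM, followed by Stat6, which relays IL-4, at 279 ± 30.4 and 271 ± 22.9. Stat5a and Stat5b, which relay IL-2, IL-7 and IL-9, had log2 changes of 0.14 (SE 0.14) and -0.02 (SE 0.10). Stat4, which relays IL-12, averaged 79.5 ± 13.5 and 70.6 ± 15.4 CPM and was lower for 3 of 3 numbers, with overlap. The JAK relatives Jak2 and Tyk2 stood at -0.09 (SE 0.24) and 0.02 (SE 0.10).

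Among 18 tested feedback inhibitors, 12 were below 0 and the median log2 change was -0.10. Socs3, Cish and Socs1, which block JAK signals, averaged 615 ± 106, 592 ± 58.4 and 518 ± 20.5 CPM in the Chat negative gate and 560.2 ± 81.7, 554 ± 45.8 and 498 ± 32.2 CPM in the other. The ubiquitin ligase Cbl, at 22.9 ± 0.786 and 18.8 ± 2.86 CPM, and the STAT inhibitor Pias3, at 19.3 ± 1.31 and 22.8 ± 1.67, did not overlap between the gates and were not called. The phosphatase Ptprc, the most abundant of the list, had a log2 change of 0.07 (SE 0.13).

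Adaptors and the PI3K arm had 10 of 11 tested genes below 0, and a median of -0.21, where 6373 of all 12967 genes tested were below 0. The lowest of the list, Akt1, Irs2, Pik3ca and Sos1, were lower for numbers 1 and 2 but higher for number 3. Pik3cd, the PI3K catalytic subunit of leukocytes, had 955, 933 and 905 CPM across Chat negative libraries 1, 2 and 3, against 788, 877 and 758 CPM across Chat positive libraries 1, 2 and 3. These values did not overlap (log2 change -0.21, SE 0.10, edgeR adjusted p = 1.00). Irs2, an adaptor of the IL-4 receptor, averaged 735 ± 209 and 505 ± 199 CPM with wide overlap. STAT target genes had 5 above and 7 below 0. The cyclin genes Ccnd2, at 751 ± 67.0 and 639 ± 89.3 CPM, and Ccnd3, at 420.2 ± 50.3 and 365 ± 34.6, and the kinase Pim2, at 771 ± 91.3 and 681 ± 99.99, were below 0 for 3 of 3 numbers, with overlap. The cytokine Osm, at 428 ± 62.7 and 491 ± 74.0, lay the other way for 3 of 3.

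**Figure D4:**
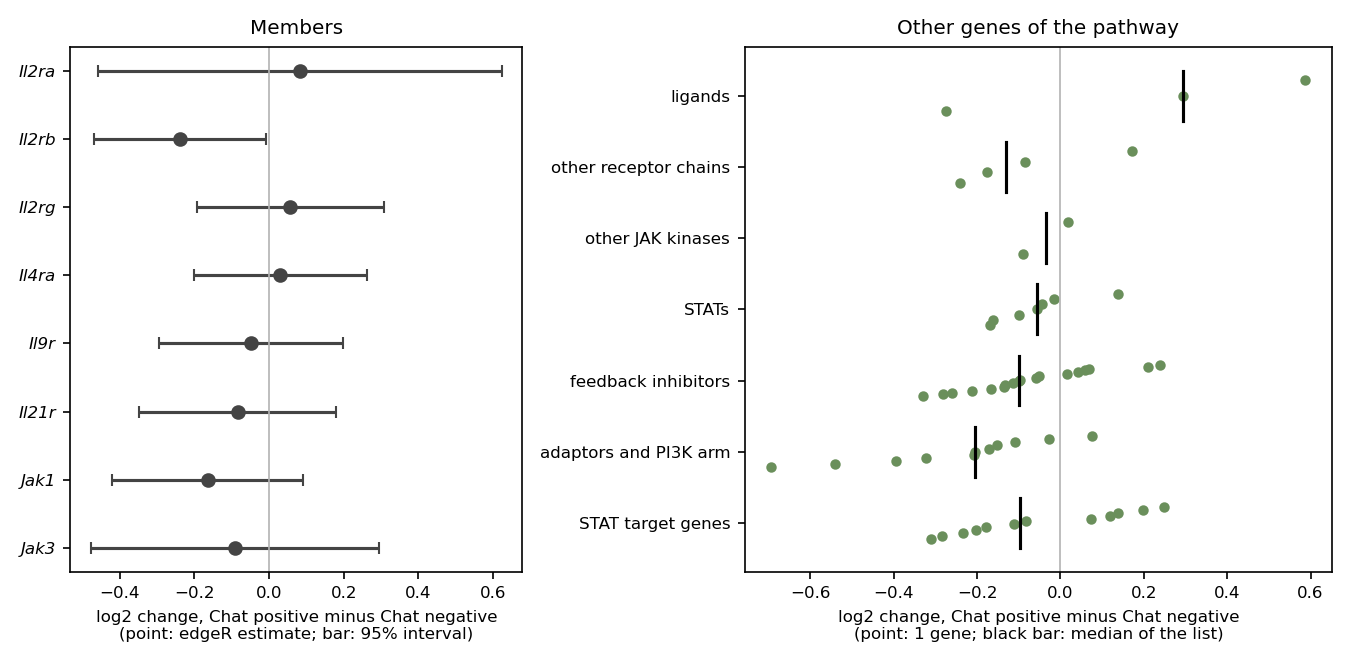
The left panel plots the edgeR log2 change, Chat positive minus Chat negative, of each of the 8 genes with its 95% interval; the right panel plots 1 point per tested gene of the pathway lists and a black bar at each list's median. On the left the interval of Il2rb alone ends short of 0 (-0.47 to -0.01) before adjustment, and on the right the list medians run from -0.21 to 0.29.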

How the data were processed

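Raw read counts per Entrez gene were deposited by the authors in 1 column per library. The values are whole and their sums differ between columns, so no normalisation was assumed. Per the labels' protocols, the library kit was SMARTer (ultra-low input). Tools and build listed in the submitters' processing notes are STAR 2.3.0, CASAVA 1.8.2 and mm10. The sources used here do not give the counting program or its strand setting. Symbols and gene coordinates came from RefSeq (GRCm38.p6, 25275 of 27179 IDs matched), lengths, GC content and overlaps from GENCODE (known for 93.2% of tested genes).

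Genes kept by filterByExpr were scaled by TMM, CPM are counts per 1000000 of the scaled library size, and all 12967 genes were tested with edgeR 4.0.16 (quasi-likelihood, robust, two-sided, 5% threshold, without the replicate number) in R 4.3.3. Standard errors follow from the F statistic and 95% intervals from its degrees of freedom. Libraries with the same number deviated together from their gate's mean (r = 0.29, 0.67 and 0.43 across genes for numbers 1, 2 and 3), so the number also served as a block. Chat negative 1 deviated as closely with Chat positive 3 (r = 0.30), and Chat negative 3 with Chat positive 1 at r = 0.20, while r between number 2 and the other numbers was -0.54 to -0.34. Deviations sum to 0 over the 3 libraries of a gate, so a high r for number 2 goes with negative r to the other numbers. The pairing by number comes from the data and not from a label. Alternatives also used DESeq2 1.42.0, limma-voom (limma 3.58.1), other scalings and filters, a loess correction (span 0.4) for length and GC, and each library left out. The 8 genes and the lists were chosen with earlier results of these data known. Named were the 8 genes, the 2 most abundant and the 2 smallest p of each pathway list, further list members, and the 3 genes most like each IL-2 receptor chain.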

Additional observations from a re-analysis of the deposited data

How the results depend on the processing

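Over 23 alternatives (19 planned and 4 added after the data were seen), the log2 change of the 8 genes reversed in 12 of 184 values and passed the threshold in 2, both in DESeq2 with the replicate block. Il2rb, Il21r and Jak1 never reversed, but Il21r ran from -0.14 (without Chat positive 1) to -0.018 (without Chat negative 1). The length and GC correction gave 0.11 for Il4ra, -0.026 for Jak3, -0.19 for Il2rb and -0.11 for Jak1. With this correction and the block, edgeR gave an adjusted p of 0.201 for Il2rb and 0.388 for Jak1. Unadjusted edgeR p under 0.05 was found for 0 of the 8 with the correction, where 246 of 12967 genes had it. The same 0 of the 8 was found with library size alone (309 of 12967) and without the low-count filter (371 of 18653). Reversals left out 1 library or 1 number or corrected for length and GC. With 1 library left out, Il2ra ran from -0.10 (without Chat positive 2) to 0.33 (without Chat negative 2) and was also below 0 without Chat negative 1 or 3. Il2rg ran from -0.024 (without Chat positive 1) to 0.11, Il4ra from -0.024 (without Chat negative 2) to 0.066, Il9r from -0.094 to 0.0095 (without Chat negative 3) and Jak3 from -0.22 to 0.033 (without Chat negative 1). Il2rg was -0.023 without number 1, -0.021 with the length and GC correction and -0.024 with that correction and the block. Il9r was 0.058 without number 3 and 0.0020 with the block and the correction.

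Genes called numbered 1 in the edgeR fit, 44 with the replicate block (0.339%), 1 with the block in edgeR without robust estimation and 1 with the block in limma-voom, 4 in DESeq2, 476 in DESeq2 with the block, 4 with the block and the length and GC correction, 0 without number 1 or 3, 2 without number 2, and 0 to 1 with 1 library left out. DESeq2 with the block called 2 of the 8 genes and 7 other pathway genes. The blocked edgeR fit changed no call among the 8 genes or the other pathway genes.

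With 1 library left out, the log2 difference of the ratio to Il2rg ran from -0.17 to 0.25 for Il2ra, -0.36 to -0.25 for Il2rb and -0.089 to 0.038 for Il4ra, and that of Jak1 to Jak3 from -0.24 to 0.10. By coding length the ranks became 3 for Il2rb, 4 for Jak1, 5 for Il4ra, 6 for Jak3, 7 for Il9r and 8 for Il21r. The causes of these changes were not tested. With 3 libraries per gate, the 95% intervals of the 8 genes still allowed changes of up to 1.54-fold (Il2ra).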

Other observations

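The libraries of number 2 were set apart in several of the pathway genes in both gates, a split noticed in the data and given as values only. Both number 2 libraries were above the other 4 for 1 of the 8 receptor and kinase genes (Il2ra) and below for 2 (Il4ra and Jak3), and above for 7 and below for 19 of the 57 other pathway genes, where 26.3% and 23.4% of all genes tested were above and below. Il2ra averaged 5766 CPM in number 2 and 3907 in numbers 1 and 3, a ratio of 1.48, and Jak3 604 and 769, a ratio of 0.785. Il7r averaged 765 and 1281 CPM, a ratio of 0.597, and Il4 45.3 and 66.5. Lta, a TNF family cytokine, went the other way at 31.8 and 17.6 CPM, as did Socs2 at 70.4 and 53.0 and Stat5a at 51.0 and 42.9. Kit, the stem cell factor receptor, averaged 261 and 168 CPM, and Mcpt8, a basophil protease gene, 27.9 and 152, while the mast cell and basophil genes Cpa3, Mcpt4 and Ms4a2 were at 0 counts in all libraries and Fcer1a had at most 2. The part of other cells in this split was not tested.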
